A study of Mus musculus with 7 samples.

Results

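Endothelial cells line blood vessels, and the 10 genes described here (Pecam1, Cdh5, Kdr, Flt1, Tie1, Tek, Esam, Cldn5, Emcn and Erg) are widely used to mark them. They were taken by gene symbol from the deposited table of 24346 genes, and each of the 10 was found once. The study asked how RNA levels differ in hippocampal neural stem cells without Med23, a subunit of the Mediator complex that links transcription factors to RNA polymerase II. RNA was sequenced from primary neurospheres of C57/BL6 mice aged 2 months, with 1 mouse per library. WT_215, WT_116, WT_213 and WT_220 are the 4 control libraries, labelled wild type, and KO_117, KO_214 and KO_218 are the 3 Med23 CKO libraries. The Med23 CKO mice carried Med23 flox/flox and Nestin-CreER, a tamoxifen-activated Cre recombinase under the Nestin promoter, which is active in neural stem cells. The controls were littermates that, in the methods, carried Med23 flox/+ or Med23 flox/flox without Nestin-CreER. Mice of both groups received tamoxifen by oral gavage at 200 mg/kg daily for 5 days, so that the Cre transgene and the loss of Med23 cannot be told apart. The paper states that endothelial cells also express Cre driven by Nestin, but whether Cre acted in endothelial cells was not measured. Dissociated hippocampus was grown with FGF and EGF, and no step that sorts cells is described, so cells of vessels could enter the culture.

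Values are FPKM, fragments scaled to the length of the transcript and to the mapped fragments of the library, as calculated by the authors with Cuffdiff. The table gives no depth, so counting error is unknown. Between 16841 and 18113 genes had a value above 0 in a library, and Pearson's r between pairs of libraries over all genes was 0.907 to 0.990. The neural stem cell label was checked by Nes (61.1 to 240 FPKM), Sox2 (69.4 to 194 FPKM) and Fabp7 (203 to 1557 FPKM), which were present in all 7 libraries. The gene-level value of Med23, which also counts exons that the deletion leaves in place, was 11.4, 10.3, 12.9 and 10.1 FPKM in the controls and 9.97, 9.27 and 8.12 FPKM in Med23 CKO. The 3 Med23 CKO values lay below the 4 control values. The log2 fold change of Med23 was -0.26 (SE 0.18), and it did not pass the test (adjusted p = 0.9999 by limma).

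Vessel walls are held together by junctions between endothelial cells. Claudins seal the tight junction, VE-cadherin forms the adherens junction, and in the brain these junctions are part of the blood-brain barrier. Growth and survival of endothelial cells depend on vascular endothelial growth factors (VEGF), which act through the receptors encoded by Kdr and Flt1, and on angiopoietins, which act through the Tek receptor with Tie1 as its partner. Transcription factors of the ETS family, Erg among them, bind DNA around the core GGAA and are known for maintaining expression of many of these genes.

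The promoters of the VEGF and angiopoietin receptors and of Cldn5 are shown because the results compare these receptors with their ligands. A further reason is that Tie1 and Cldn5 hold the most and the fewest copies of this core among the members with a promoter sequence. RefSeq (GRCm38.p6) gave a window, from 250 bases before to 50 bases after the start, for 7 of the 10 genes, in 9 windows. Sequences run 5′ to 3′ on the strand of the gene, and capitals mark GGAA or its reverse complement TTCC.
Tie1, chr4:118489800-118490099, reverse strand: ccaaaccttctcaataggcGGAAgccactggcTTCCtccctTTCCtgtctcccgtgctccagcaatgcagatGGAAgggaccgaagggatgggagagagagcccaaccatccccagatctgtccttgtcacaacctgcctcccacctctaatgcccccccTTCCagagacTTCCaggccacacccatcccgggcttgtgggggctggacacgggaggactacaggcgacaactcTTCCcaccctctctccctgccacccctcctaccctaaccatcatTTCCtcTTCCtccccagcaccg
Kdr, chr5:75978406-75978705, reverse strand: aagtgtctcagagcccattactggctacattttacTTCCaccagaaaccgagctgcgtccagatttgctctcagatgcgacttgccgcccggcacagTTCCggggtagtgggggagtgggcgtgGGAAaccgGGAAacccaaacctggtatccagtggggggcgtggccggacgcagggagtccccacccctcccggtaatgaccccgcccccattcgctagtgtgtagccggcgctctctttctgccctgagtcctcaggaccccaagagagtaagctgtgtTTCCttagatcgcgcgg
Flt1, chr5:147725962-147726261, reverse strand: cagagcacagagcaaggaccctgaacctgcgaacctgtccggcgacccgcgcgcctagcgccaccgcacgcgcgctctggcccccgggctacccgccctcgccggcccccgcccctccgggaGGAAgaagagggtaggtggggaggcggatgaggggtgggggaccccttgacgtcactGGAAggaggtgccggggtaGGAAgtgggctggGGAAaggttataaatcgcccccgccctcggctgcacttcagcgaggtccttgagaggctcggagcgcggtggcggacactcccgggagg
Tek, chr4:94739039-94739338, forward strand: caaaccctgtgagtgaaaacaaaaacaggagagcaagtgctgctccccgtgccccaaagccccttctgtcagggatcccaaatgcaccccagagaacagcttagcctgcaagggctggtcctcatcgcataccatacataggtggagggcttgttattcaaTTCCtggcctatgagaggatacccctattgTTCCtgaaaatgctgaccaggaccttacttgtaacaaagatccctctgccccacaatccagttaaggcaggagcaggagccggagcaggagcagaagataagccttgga
Cldn5, chr16:18776597-18776896, forward strand: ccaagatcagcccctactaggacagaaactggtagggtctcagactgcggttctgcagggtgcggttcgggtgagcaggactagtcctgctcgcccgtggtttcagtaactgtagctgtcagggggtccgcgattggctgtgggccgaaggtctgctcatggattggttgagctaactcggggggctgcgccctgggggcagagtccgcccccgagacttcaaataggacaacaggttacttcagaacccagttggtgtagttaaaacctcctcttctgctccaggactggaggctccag

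The window of Tie1 held 9 matches, that of Kdr 5, that of Flt1 4, that of Tek 2 and that of Cldn5 0, on both strands together. Among the windows not shown, that of Emcn held 6, and the 3 of Erg held 1, 4 and 2. GGAA is short and was found in 96.0% of all 32851 mouse promoter windows of this length, with a median of 3 matches, and in 8 of the 9 windows of the endothelial genes. The longer ETS motif CAGGAAG was in 2 of the 9 windows (Emcn and 1 of the 3 starts of Erg) and in 13.3% of all windows, and CCGGAAG was in 0 of the 9 and in 8.86% of all. These 2 motifs contain GGAA, so their matches are counted in both. The TATA motif TATAAA was in the window of Flt1 and in another of Erg, against 13.6% of all windows. Windows of the receptor genes were 52% (Tek) to 70.7% (Flt1) G and C, against a median of 52.7% over all windows. A match is a description of letters and not of binding.

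The genes lie on 7 chromosomes in GENCODE M21 (GRCm38, the same as mm10). The endothelial genes of chromosome 4 are Tie1 (118471191-118490061, reverse strand) and Tek (94739289-94874976, forward strand), and those of chromosome 5 are Kdr (75932827-75978458, reverse strand) and Flt1 (147561604-147726011, reverse strand). Chromosome 16 carries Cldn5 (18776847-18778262, forward strand), a gene of 1 exon, and Erg (95359169-95586593, reverse strand). The remaining members are Emcn on chromosome 3 (137341067-137432185, forward strand), Cdh5 on chromosome 8 (104101625-104144511, forward strand), Esam on chromosome 9 (37528078-37538319, forward strand) and Pecam1 on chromosome 11 (106654217-106750628, reverse strand). Cdh5 overlaps the antisense gene Gm29682 on the opposite strand, and since strand was not stated to be used in counting, reads of the pair cannot be told apart.

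No endothelial gene passed the test for a difference between Med23 CKO and control, against the spread between mice. All 10 passed the filter on low values (a mean of at least 0.5 FPKM over the 7 libraries), and 0 of the 10 had an adjusted p under 0.05 by limma on log2(FPKM + 1), as did 0 of the 14151 genes tested (0%). At an unadjusted p under 0.05, 0 of the 10 were called, against 0.502% of all genes higher and 0.996% lower in Med23 CKO. For none of the 10 did all 3 Med23 CKO values lie above the 4 control values (0.784% of all genes) or below them (1.53%). The mean on the log2 scale was higher in Med23 CKO for 9 of the 10 genes, with a median log2 fold change of 0.49 against -0.031 over all genes tested, of which 6196 were higher and 7955 lower. Exact two-sided permutation p-values over the 35 ways to label 4 of the 7 libraries as control were 0.371 (Flt1) to 0.943 (Erg), where the smallest p this design allows is 0.0286. What varied was the level from mouse to mouse, which spanned 6.76-fold (Kdr) to 68.7-fold (Flt1) between the lowest and the highest library. In bulk RNA, fewer cells of a type and less RNA per cell cannot be told apart.

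**Figure D1:**
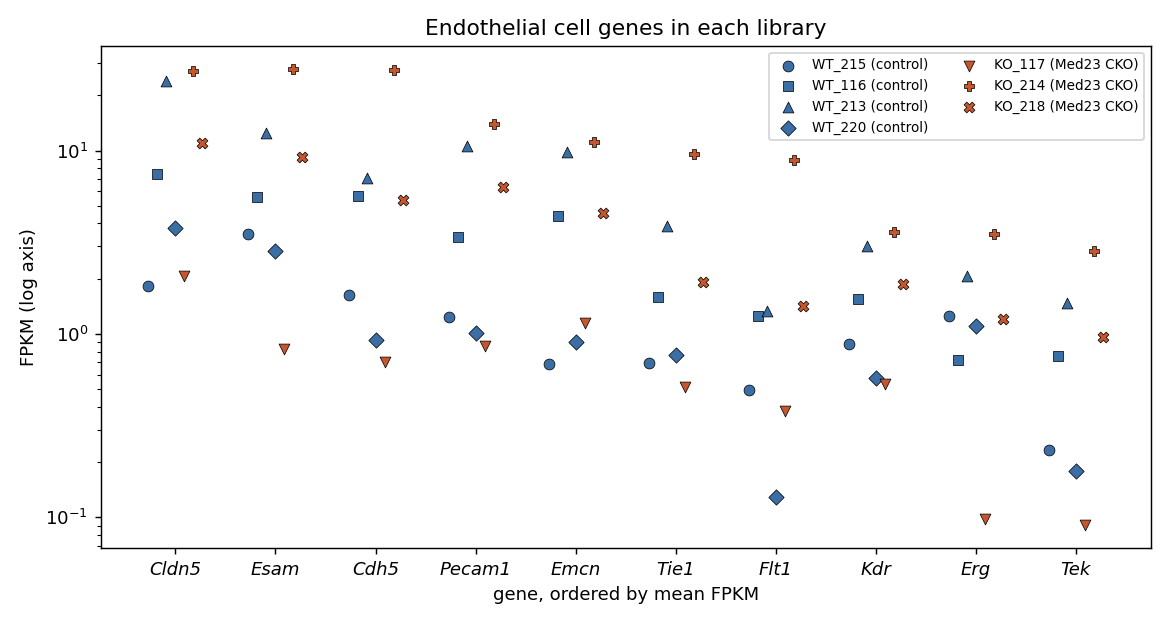
FPKM (log axis) of the 10 endothelial genes, ordered by their mean, with 1 point per library (blue, 4 controls; orange, 3 Med23 CKO). KO_214 is the highest point for every gene, WT_213 is next for 9 of them, and the groups overlap for all 10.

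Among the junction genes, Cldn5 encodes claudin-5, the main tight junction claudin of brain endothelium. It was measured at 1.82, 7.48, 23.9 and 3.80 FPKM in WT_215, WT_116, WT_213 and WT_220 and at 2.06, 27.1 and 10.9 FPKM in KO_117, KO_214 and KO_218. Each group had both low and high libraries, and WT_213 came close to KO_214, which was 1.13-fold above it. The control mean was 9.26 ± 10.1 FPKM (SD, n = 4) and the Med23 CKO mean 13.4 ± 12.7 FPKM (SD, n = 3), with a log2 fold change of 0.46 (SE 0.92, 95% interval -1.69 to 2.62). Cdh5, which encodes VE-cadherin, was at 1.63, 5.66, 7.09 and 0.921 FPKM in the controls, in the same order, and at 0.703, 27.6 and 5.38 FPKM in Med23 CKO. Here KO_214 stood 3.89-fold above the highest control, and the other Med23 CKO libraries were within or below the control range. The log2 fold change of Cdh5 was 0.74 (SE 0.95).

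Esam, an adhesion molecule of endothelial tight junctions that platelets also carry, had 3.50, 5.54, 12.4 and 2.85 FPKM in the controls and 0.828, 27.9 and 9.27 FPKM in Med23 CKO. The Med23 CKO group held both the lowest and the highest Esam value of the 7 libraries. Its log2 fold change was 0.38 (SE 0.90). Pecam1, the CD31 molecule of endothelial cell borders that is also found on platelets and leukocytes, was at 1.23, 3.39, 10.6 and 1.02 FPKM in the controls and at 0.854, 14.0 and 6.34 FPKM in Med23 CKO. WT_213 again lay near KO_214, and the log2 fold change was 0.60 (SE 0.84).

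Kdr encodes VEGFR2, the receptor that carries most of the VEGF-A signal in endothelium. It was measured at 0.886, 1.55, 3.01 and 0.573 FPKM in the controls and 0.533, 3.60 and 1.88 FPKM in Med23 CKO. Its libraries were the closest to each other of the 10 genes, and the log2 fold change was 0.22 (SE 0.46). Flt1 encodes VEGFR1, which binds VEGF-A, VEGF-B and placental growth factor, is also made in a soluble form, and is found on monocytes and macrophages as well. Flt1 had 0.496, 1.25, 1.34 and 0.129 FPKM in the controls and 0.380, 8.84 and 1.43 FPKM in Med23 CKO. A single library, KO_214, was set apart, 6.59-fold above the highest control, and the other Med23 CKO libraries overlapped the controls or lay just above them. Flt1 had the highest log2 fold change of the members, 0.89 (SE 0.65, 95% interval -0.62 to 2.40), which was 0.083 without KO_214. The ratio of Kdr to Flt1 was 1.79, 1.24, 2.25 and 4.45 in the controls and 1.40, 0.408 and 1.32 in Med23 CKO, so that Flt1 exceeded Kdr in KO_214 only.

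Tek encodes Tie2, the angiopoietin receptor, which some monocytes also carry. It had the lowest mean of the 10 genes, with 0.231, 0.757, 1.48 and 0.180 FPKM in the controls and 0.0903, 2.85 and 0.961 FPKM in Med23 CKO. The lowest and the highest value were both in Med23 CKO, and the log2 fold change was 0.35 (SE 0.46). Tie1, the receptor that pairs with Tie2, was at 0.695, 1.58, 3.88 and 0.769 FPKM in the controls and at 0.511, 9.52 and 1.92 FPKM in Med23 CKO, with the libraries in nearly the same order as for Tek. The log2 fold change of Tie1 was 0.53 (SE 0.68).

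Emcn encodes endomucin, a sialomucin on the surface of capillary and venous endothelium. It was at 0.684, 4.39, 9.77 and 0.907 FPKM in the controls and at 1.15, 11.2 and 4.57 FPKM in Med23 CKO, where KO_214 was 1.14-fold above WT_213. The log2 fold change was 0.51 (SE 0.81). Erg, the ETS factor among the members, had 1.24, 0.720, 2.08 and 1.11 FPKM in the controls and 0.0981, 3.50 and 1.21 FPKM in Med23 CKO. For Erg the low library was KO_117 and the remaining libraries were nearer to each other. The group means of log2(FPKM + 1) were almost equal, with a log2 fold change of -0.012 (SE 0.47). With 0.1 added to the FPKM in place of 1, the log2 fold change of Erg was -0.42. The sign of the Erg value changed with centring of the libraries on their medians (0.014) and under other alternatives.

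**Figure D2:**
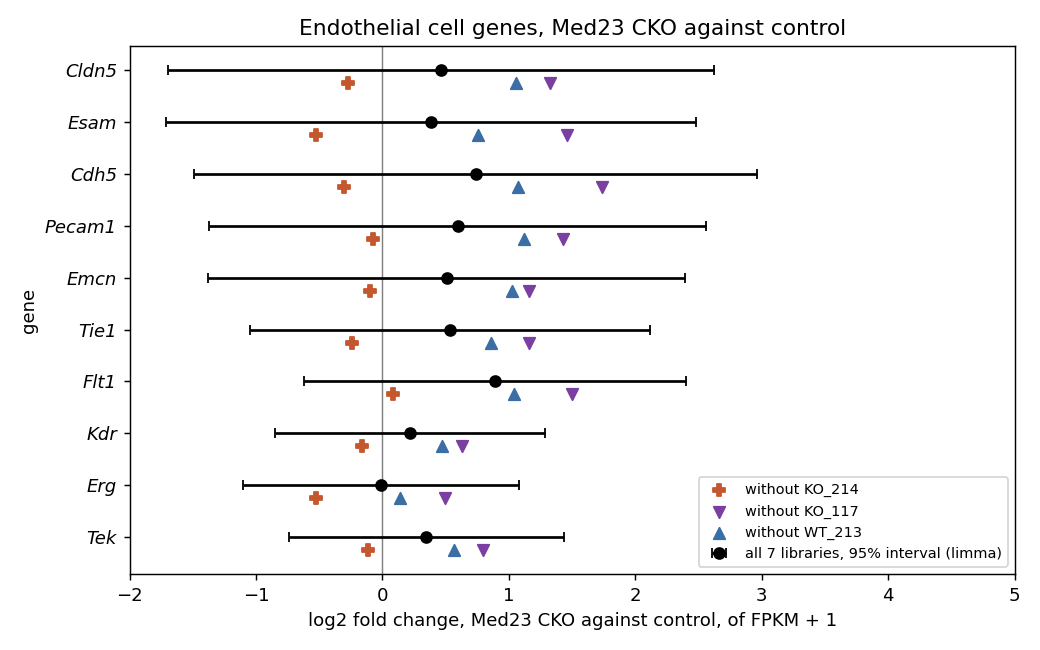
Log2 fold change of FPKM + 1, Med23 CKO against control, for each endothelial gene, with the estimate and 95% interval of limma from all 7 libraries (black) and the estimate without KO_214, KO_117 or WT_213 (coloured marks). All 10 intervals include 0, and without KO_214 the estimate lies below 0 for every gene except Flt1.

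The direction of the 9 higher means rested on 1 library. Without KO_214 the median log2 fold change of the 10 genes was -0.20 and only Flt1 (0.083) was above 0, without KO_117 the median was 1.24, and without WT_213 it was 0.94. It was 0.23 without WT_215 or without WT_220, 0.54 without WT_116 and 0.40 without KO_218. Leaving out KO_117 brought Esam and Flt1 to an unadjusted p under 0.05 (0.047 and 0.037 by limma), and the adjusted p stayed above 0.05 for all 10 genes whichever library was left out.

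Since FPKM is per length, levels can be compared between genes. The order of the genes by mean FPKM over the 7 libraries was Cldn5 (11.0), Esam (8.91), Cdh5 (6.995), Pecam1 (5.34), Emcn (4.67), Tie1 (2.70), Flt1 (1.98), Kdr (1.72), Erg (1.42) and Tek (0.935). Neighbours in this order overlapped over their range across libraries. The SD of log2(FPKM + 1) over the 7 libraries was 0.63 (Kdr) to 1.43 (Cdh5), against a median of 0.37 over all genes tested. Adding 1 narrows this SD for low genes, so it depends on level. Erg, which spanned 35.7-fold, had an SD of 0.64, close to that of Kdr, which spanned 6.76-fold. Only 1.82% of the genes tested had a larger SD than Cdh5, and 21.3% had a larger SD than Kdr.

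The 10 genes ordered the mice in much the same way. KO_214 had the highest value of all 10, whereas it was the highest library for 25.4% of all genes tested, and WT_213 was next for 9 of the 10. KO_117 had the lowest value of 7 of the 10, against 20.6% of all genes. Summed over the 10 genes, the FPKM was 136 in KO_214, 75.7 in WT_213, 43.9 in KO_218, 32.3 in WT_116, 12.4 in WT_215, 12.3 in WT_220 and 7.20 in KO_117. The libraries of both groups were interleaved along this order, and the Med23 CKO group held both of its ends. The mean log2(FPKM + 1) over the 10 genes ran from 0.72 in KO_117 to 3.50 in KO_214.

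Over the 7 libraries, the correlation between pairs of endothelial genes on the log2 scale had a median Pearson's r of 0.94 over the 45 pairs (0.69 to 0.99), and 40 pairs exceeded 0.8. Spearman's rho had a median of 0.89 (0.54 to 1). Without KO_214 the median r over 6 libraries was 0.93 (0.40 to 0.99). Each pair shares the same 7 libraries, and the values are a description. Tek followed the mean of the 10 genes' standardised values most closely (r = 0.998) and Erg least (0.861), where each gene is itself part of that mean. Of all genes tested, 2263 (16%) had an r above 0.8 with this mean. Between pairs, the ratio of Cdh5 to Tek varied least, with an SD of 0.37 on the log2 scale over the libraries, and that of Flt1 to Erg most, with 1.73.

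The 10 genes outside the list whose pattern was most like this mean were Gngt2 (r = 0.997), Adgrf5 (0.994), Stard6 (0.991), Fli1 (0.991), Enpep (0.991), Frmd6 (0.990), C1qc (0.989), Uap1 (0.989), Abca9 (0.988) and Manba (0.988), over the 7 libraries. Adgrf5 encodes an adhesion receptor of endothelium, Fli1 an ETS factor related to Erg, Enpep an aminopeptidase of pericytes and C1qc a complement chain made by microglia. Fli1 was measured at 0.320, 1.37, 2.19 and 0.397 FPKM in the controls and at 0.202, 5.06 and 1.73 FPKM in Med23 CKO. C1qc had 2.57, 7.15, 12.4 and 2.19 FPKM in the controls and 2.00, 42.6 and 9.19 FPKM in Med23 CKO. The genes most alike thus included markers of cells other than endothelium.

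Markers of microglia and of mural cells followed a similar order of libraries, and the summed fibroblast markers did not. The 16 tested markers of microglia and macrophages had their highest value in KO_214 for 15 genes. Summed over all 17 on the list, the FPKM was 61.7 to 358 in control and 65.2 to 1450 in Med23 CKO. By this sum their libraries followed the order of the endothelial genes except for the exchange of WT_220 and KO_117 at its end. Tyrobp, a signaling adaptor of myeloid cells, was at 39.0, 77.3, 110 and 14.3 FPKM in the controls and at 16.0, 492 and 79.7 FPKM in Med23 CKO. Cx3cr1, the fractalkine receptor of microglia, lay under the filter, at 0.0866 to 0.782 FPKM. The 13 tested markers of pericytes and smooth muscle, the cells that wrap vessels, were highest in KO_214 for 11 genes, and the 14 on the list summed to 107 to 208 FPKM in control and 71.9 to 619 FPKM in Med23 CKO. An r above 0.8 with the mean of the endothelial genes was found for 14 of the 16 tested microglia and macrophage markers and for 11 of the 13 mural markers, against 16% of all genes. The lowest r was 0.41 for the microglia and macrophage markers and -0.69 for the mural markers. Their examples Acta2 and Tagln, both of the smooth muscle contractile apparatus, reached 178 and 193 FPKM in KO_214, against at most 54.3 and 37.9 FPKM in the other libraries. The 9 fibroblast markers on the list summed to 12.5 to 35.3 FPKM in control and 12.7 to 134 FPKM in Med23 CKO. They too were highest in KO_214, but by this sum KO_117, the lowest library of the endothelial genes, was next, and WT_213 was near the low end. Of the 37.8 FPKM in KO_117, 33.2 FPKM came from Fbln1 alone. By the mean log2(FPKM + 1) of the tested fibroblast markers, WT_215 was next (2.15) and KO_117 was at 1.28. Of the 7 fibroblast markers tested, 5 were highest in KO_214. Their median r with the endothelial mean was 0.68, and 1 (Col3a1, a collagen chain) had an r above 0.8. Fbln1, a fibulin of the extracellular matrix and the most abundant of the 7, had the lowest r, at -0.76. KO_214 exceeded the next library 1.80-fold in the summed FPKM of the 10 endothelial genes, 2.97-fold in that of the mural markers, 3.55-fold in that of the fibroblast markers and 4.06-fold in that of the microglia and macrophage markers. The median log2 fold change of the tested markers was 0.81 for microglia and macrophages, 0.50 for mural cells and 0.59 for fibroblasts, and -0.25, -0.25 and -0.36 without KO_214. No marker of these lists was at 0 in all libraries, none passed the adjusted threshold, and the part of these cells in the endothelial values was not tested.

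The 6 tested markers of red cells and platelets behaved otherwise, with 0 of the 6 highest in KO_214. Their median log2 fold change was 0.23, and it was -0.16 without KO_218 and -0.12 without WT_215. The 10 listed markers in the table summed to 8.71 to 45.8 FPKM in control and 12.1 to 54.2 FPKM in Med23 CKO. Hemoglobin genes (Hbb-bs, Hba-a1 and Hba-a2) have near-identical copies, so their values are uncertain. Pf4, platelet factor 4, was at 1.15, 1.47, 1.15 and 1.201 FPKM in the controls and at 7.55, 2.14 and 3.86 FPKM in Med23 CKO. Pf4 lay above all controls in each Med23 CKO library, as did 0.784% of all genes tested. Its log2 fold change was 1.18 (SE 0.34), with an exact permutation p of 0.0286, the smallest the design allows, and an adjusted p of 0.9999 by limma. The library with the most Pf4, KO_117, was the one with the lowest endothelial sum.

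Markers of neural cells did not follow this order. Of 12 neural stem and progenitor markers, 9 had a lower mean in Med23 CKO (median log2 fold change -0.24), and of 12 neuron and oligodendrocyte lineage markers 10 did (median -0.49), with 0 past the unadjusted or the adjusted threshold in either list. The neural stem median was -0.070 without KO_218, -0.082 without WT_215, -0.090 without WT_220, -0.13 without KO_214 and -0.51 without KO_117, and that of the neuron and oligodendrocyte list was -0.037 without KO_117, -0.055 without WT_116 and -0.32 without KO_214. Fabp7, a fatty acid binding protein of neural progenitors, was at 1557, 463, 1000.2 and 1518 FPKM in the controls and at 1501, 203 and 1054 FPKM in Med23 CKO, lowest in the library where the endothelial genes were highest. Olig1, a transcription factor of the oligodendrocyte lineage, was likewise lowest in KO_214, at 214.5 FPKM, and highest in WT_220, at 1943 FPKM. The median r of the 12 neural stem and progenitor markers with the endothelial mean was -0.75, and 2 of them had an r above 0.8. Of these 2, Gfap, a filament protein of astrocytes and radial stem cells, was singled out after its values were seen. Gfap reached 321 FPKM in KO_214 against at most 138 FPKM in the other libraries and had an r of 0.972 with the endothelial mean.

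**Figure D3:**
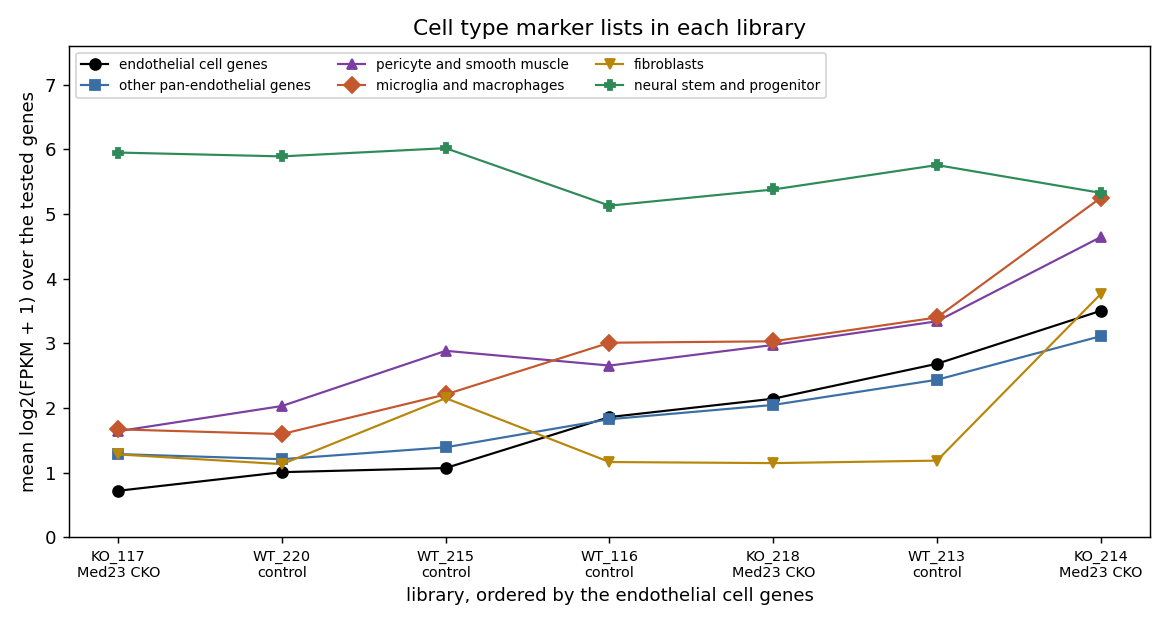
Mean log2(FPKM + 1) over the tested genes of each marker list, by library, with libraries ordered by the 10 endothelial genes (black). The microglia and pericyte lists are lowest in KO_117 and WT_220 and highest in KO_214, fibroblast markers are high in KO_214 (3.76) and next in WT_215 (2.15), and neural stem and progenitor markers stay between 5.13 and 6.02.

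Other genes of endothelial cells were read from lists that named 25 surface and signaling genes, of which 22 were tested. All 22 had a higher mean in Med23 CKO (median log2 fold change 0.42, with -0.095 without KO_214, 0.91 without KO_117, 0.74 without WT_213, 0.28 without WT_215 and 0.25 without WT_220), 21 were highest in KO_214, and 1 passed the unadjusted threshold, Calcrl, which encodes the receptor of adrenomedullin and calcitonin gene-related peptide. Of all genes tested, 0.502% were higher in Med23 CKO at that threshold. Calcrl was at 3.01, 4.89, 3.62 and 1.29 FPKM in the controls and at 5.80, 10.8 and 6.51 FPKM in Med23 CKO. For Calcrl, as for 0.784% of all genes tested, every Med23 CKO value was above every control. Its log2 fold change was 1.09 (SE 0.37; 0.82 to 1.28 with each library left out in turn), with an exact permutation p of 0.0571 and an adjusted p of 0.9999 by limma. Ramp2, the partner of this receptor, was the 1 gene not highest in KO_214, at 8.09, 4.22, 8.93 and 13.3 FPKM in the controls and 14.4, 10.6 and 8.93 FPKM in Med23 CKO. Tm4sf1, a tetraspanin-like protein of endothelial filopodia, ran with the members instead, at 25.7, 55.4, 74.1 and 8.47 FPKM in the controls and 8.31, 133 and 73.6 FPKM in Med23 CKO.

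The 13 tested genes of the blood-brain barrier were mixed. Their mean was higher in Med23 CKO for 7 and lower for 6 (median log2 fold change 0.028), 7 were highest in KO_214, and 6 had an r above 0.8 with the endothelial mean. The median was 0.57 without KO_117 and -0.21 without KO_214. The mean log2(FPKM + 1) over the 13 genes was highest in KO_214 (3.38) and WT_213 (3.04) and lowest in KO_117 (2.27) and WT_220 (2.30), at the same ends as the members. Abcb1a, the efflux pump P-glycoprotein, and Ly6c1, a surface protein of brain endothelium, were singled out after their values were seen. Their r with the endothelial mean was 0.952 and 0.933, but r over the list ran down to -0.90. That lowest r was of Mfsd2a, which was highest in KO_117 at 42.4 FPKM and lowest in KO_214 at 3.90 FPKM, opposite to the members. The FPKM summed over the list was instead highest in KO_117, and much of that sum came from Slc7a5, a large neutral amino acid transporter that proliferating cells also use, at 135, 32.2, 52.0 and 171 FPKM in the controls and 154, 34.1 and 48.9 FPKM in Med23 CKO. Slc2a1, the glucose transporter GLUT1, was at 29.3, 53.1, 45.1 and 50.7 FPKM in the controls and 75.7, 93.0 and 43.0 FPKM in Med23 CKO. These transporters are made by many cell types, and their libraries overlapped between the groups.

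Of 10 tested arterial, venous and lymphatic genes, 8 were higher in the Med23 CKO mean and 8 were highest in KO_214 (median log2 fold change 0.43, with 0.020 without KO_214 and 0.67 without KO_117), with 0 past the unadjusted threshold. Efnb2, the arterial ephrin ligand, had 8.19, 9.31, 8.41 and 7.10 FPKM in the controls and 12.2, 13.8 and 8.82 FPKM in Med23 CKO. Nr2f2, a venous identity factor, had 3.57, 6.21, 5.04 and 6.55 FPKM in the controls and 4.23, 11.7 and 4.27 FPKM in Med23 CKO. Both overlapped between the groups. Vwf, the von Willebrand factor of endothelium and platelets, was singled out after its values were seen, since it was at 0.291 to 0.556 FPKM in the controls and at 0.222, 5.33 and 1.03 FPKM in Med23 CKO.

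Among 18 tested transcription factors of the endothelial lineage, 13 were higher in the Med23 CKO mean and 12 were highest in KO_214 (median log2 fold change 0.30, and -0.11 without KO_214 or 0.16 without WT_116), with 0 past the unadjusted threshold. Of the 18 factors, 10 had an r above 0.8 with the endothelial mean, against 16% of all genes, and the median r was 0.85. The 3 most abundant factors did not all follow the members. Ets1 and Elk3, both ETS factors, had an r of -0.68 and -0.62 with the endothelial mean over the 7 libraries, and Epas1 (HIF-2 alpha, a hypoxia-responsive factor) had an r of 0.85. Epas1 was at 13.8, 7.13, 18.3 and 8.34 FPKM in the controls and 8.49, 46.6 and 16.3 FPKM in Med23 CKO.

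The ligands of the receptors did not all follow them. Vegfa, the main ligand of Kdr, was at 26.4, 26.3, 30.4 and 156 FPKM in the controls and at 168, 41.6 and 29.4 FPKM in Med23 CKO. It was high in 1 mouse of each group, WT_220 and KO_117, and these were the libraries with the lowest endothelial sums. WT_215 had nearly the same endothelial sum as WT_220 (12.4 and 12.3 FPKM), but its Vegfa was at 26.4 FPKM. The log2 fold change of Vegfa was 0.46 (SE 0.80), and its r with the endothelial mean was -0.54. Vegfb, a ligand of Flt1, was highest in the same pair of libraries, with 46.1 FPKM in WT_220 and 78.6 FPKM in KO_117 against 20.7 to 34.5 FPKM in the others. Pgf, placental growth factor and a further ligand of Flt1, was chosen after its values were seen. Pgf ran with the receptors, at 1.45, 3.64, 5.97 and 1.75 FPKM in the controls and 1.34, 9.70 and 4.79 FPKM in Med23 CKO (r = 0.988 with the endothelial mean). Nrp1, the co-receptor of VEGF, was at 11.9, 9.05, 18.4 and 13.5 FPKM in the controls and at 11.9, 33.5 and 15.5 FPKM in Med23 CKO. Of the 9 tested ligands and co-receptors, 8 had a higher mean in Med23 CKO (median log2 fold change 0.46, with 0.30 without KO_214 and 0.76 without KO_117) and 0 passed the unadjusted threshold.

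Angpt2, the angiopoietin that endothelial tip cells release and that can oppose Angpt1 at the Tek receptor, was the 1 gene of 9 tested tip cell and angiogenic genes at an unadjusted p under 0.05. Of all genes tested, 0.502% were higher in Med23 CKO at that threshold. Angpt2 was at 11.7, 19.6, 17.5 and 19.1 FPKM in the controls and at 31.2, 25.7 and 23.5 FPKM in Med23 CKO. Every Med23 CKO value was above every control, as for 0.784% of all genes tested. The means were 17.0 ± 3.61 FPKM (SD, n = 4) and 26.8 ± 4.01 FPKM (SD, n = 3), and the log2 fold change was 0.64 (SE 0.22), with an exact permutation p of 0.0286 and an adjusted p of 0.9999 by limma. This difference stayed at 0.49 to 0.73 whichever library was left out, and its r with the endothelial mean was 0.14. Angpt1, which activates Tek and was chosen after its values were seen, was at 1.36, 4.04, 3.27 and 0.701 FPKM in the controls and at 1.68, 3.65 and 4.72 FPKM in Med23 CKO, and the groups overlapped. Of the other tip cell genes, Apln (apelin, a peptide ligand of endothelial cells) was highest in WT_220 at 130 FPKM and Adm (adrenomedullin) spanned 37.7 to 58.4 FPKM, and the list as a whole had 5 genes with a higher and 4 with a lower mean. Their median log2 fold change was 0.14, and it was -0.17 without KO_214 and 0.47 without KO_117.

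**Figure D4:**
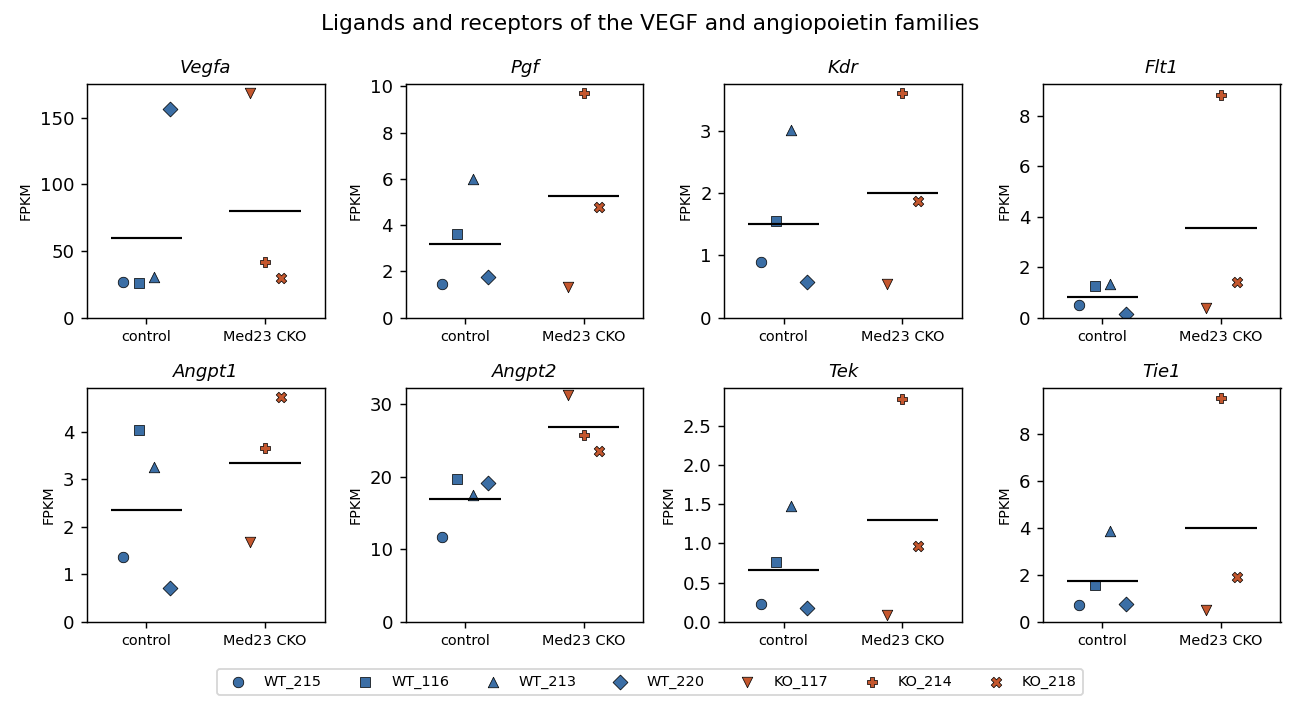
FPKM (linear axes from 0) of VEGF ligands (Vegfa, Pgf) and angiopoietins (Angpt1, Angpt2) on the left and of their receptors (Kdr, Flt1, Tek, Tie1) on the right, with 1 point per library and a line at each group mean. KO_214 is the top point for all 4 receptors, Vegfa is high in WT_220 and KO_117, and Angpt2 is the gene shown whose 3 Med23 CKO points (23.5 to 31.2 FPKM) lie above all 4 controls.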

How the data were processed

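RNA of primary neurospheres was measured in 7 libraries, matched to group and mouse by title and genotype label. Per the methods, adapters were removed with cutadapt and reads were aligned to mm10 with TopHat at default parameters; the submitters' notes also name FastQC. The authors deposited FPKM per gene and library from Cuffdiff, with group means and columns of their own comparison (log2 fold change, statistic, p and q), which were not used. Versions and the annotation are not given in the sources used here. The table held 0 columns of other samples.

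The 2 groups were compared with limma 3.58.1 (R 4.3.3; lmFit and eBayes with trend, two-sided) on log2(FPKM + 1). Genes under a mean of 0.5 FPKM were left out, and Benjamini-Hochberg adjustment was over the 14151 genes kept. All 4 controls were used, although the paper gives 3 per group. Replicates are separate mice. Low FPKM values showed no steps of whole reads, so no count test was run. The test was tried on simulated data. Lists were described by counts and medians, without a test. The members and lists were chosen with earlier results of these data known. Named genes are the members, Med23, and of each list the genes at an unadjusted p under 0.05 and the 3 with the highest mean FPKM, of which some are given only in counts, and the 10 most like the members. Motifs were searched as exact matches on both strands. Alternatives were another pseudocount (0.1), other filters, normalizations, variance settings, a covariate, and each library left out.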

Additional observations from a re-analysis of the deposited data

How the results depend on the processing

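The count of endothelial genes with an adjusted p under 0.05 was 0 under every alternative run. The median log2 fold change of the 10 genes was 0.49 and lay between 0.39 (array weights, a fit that stopped before full convergence) and 0.57 (pseudocount of 0.1) under the alternatives that kept all libraries, except that it was 0.88 as the log2 ratio of group mean FPKM, which was chosen after seeing the data. When each library was left out in turn, the median ranged from -0.20 (without KO_214) to 1.24 (without KO_117), and the number of the 10 at an unadjusted p under 0.05 ranged from 0 to 2. Over the same omissions the log2 fold change ranged from -0.077 to 1.43 for Pecam1, -0.30 to 1.73 for Cdh5, -0.16 to 0.63 for Kdr, -0.24 to 1.16 for Tie1, -0.12 to 0.79 for Tek, -0.53 to 1.46 for Esam, -0.28 to 1.32 for Cldn5, -0.096 to 1.16 for Emcn, 0.083 to 1.499 for Flt1 and -0.52 to 0.50 for Erg, each lowest without KO_214 and highest without KO_117. Erg, at -0.012, was also at 0.014 with median centring, at 0.070 with the leading digit of the mouse label as covariate, at 0.14 without WT_213 and at 0.32 as the ratio of group means. In the other direction, Erg was at -0.42 with a pseudocount of 0.1, at -0.14 without WT_116 and at -0.10 with array weights. The cause was not tested. Of 179 values of single genes over the alternatives, 166 kept their direction and side of the threshold and 13 changed sign. Tek fell under the filter at a mean FPKM of at least 1. The 7 libraries, with an SD within groups of 1.07 for the members' mean log2(FPKM + 1), limit the precision, and depth is unknown. No paired analysis was possible because the mouse numbers are not shared between the groups.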
